A study of Oryctolagus cuniculus with 4 samples.

Results

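Matricellular and provisional matrix genes were examined in rabbit ear hypertrophic scar (HS) with and without drug-loaded microneedle treatment. The group held 10 genes picked by name, and the rows whose gene name matched gave 7 of them, FN1, SPARC, SPARCL1, THBS1, THBS4, SPP1 and CCN2, among 13913 genes in all. POSTN, TNC and THBS2 were not analysed here. All 7 genes passed the filter on low values.

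The provisional matrix is the first scaffold of a wound, in which fibronectin binds fibrin and lets cells crawl in. Matricellular proteins are secreted into the matrix but act mainly as signals rather than as structural fibres. They bind integrins, growth factors and collagen, are scarce in resting adult skin, and return when a wound heals or a scar forms.

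Single-cell RNA libraries were prepared by the 10x Genomics droplet method from WT female rabbits, whose strain was not given and which were 10 to 12 weeks old at purchase. In both groups, wounds cut through the ventral ear skin, with the perichondrium removed, had grown into HS. The HS group (2 libraries) was left untreated, and the drug-loaded MNs group (2 libraries) received 3 weekly patches from day 22, whose needle tips stay in the scar and release a prodrug made from a 5-fluorouracil derivative and a peptide. Ventral epidermis and dermis were taken on day 43, 1 tissue per library, and since several scars were raised on each ear and no label names an animal, the p-values below cover only the spread between these libraries.

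The table gave 1 value per gene and library rather than values per cell, so changes in cell makeup and changes within cells could not be separated, and fewer cells of a type and less RNA per cell cannot be told apart. Levels are given below as relative expression in units, 1 unit being 1 part in 1000000 of the library total. Depth was unknown. Keratinocyte and fibroblast markers were plentiful in every library, KRT10 at 24607 units or more and COL1A2 at 12946 units or more. The share of mitochondrially encoded transcripts was 2.75% and 2.80% in HS against 4.37% and 4.58% in drug-loaded MNs, and its part in the results below was not tested.

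To ask whether treatment went with a different expression of these genes, log2(units + 1) was compared between the groups with limma over all 9348 genes tested. None of the 7 genes passed an adjusted p of 0.05, where 4 of the 9348 genes (0.0428%) did. That background count was 0 when HS replicate 1 was left out (820 genes at an unadjusted p under 0.05 in limma) and 3 when HS replicate 2 was, and leaving out drug-loaded MNs replicate 1 or 2 gave 48 or 75 genes. No matricellular gene passed in any of these fits. All 7 genes had a log2 fold change above 0, against 64.6% of all genes, and their median was 0.44 against 0.12 over all genes tested. The genes were picked with earlier results of these data known, so such comparisons describe the 7 genes and test nothing. The groups were free of overlap in 4 of the 7, each higher in drug-loaded MNs, where 26.6% of all genes were higher without overlap and 11.2% lower. SPARC and SPP1 had an unadjusted p under 0.05, which 7.26% of all genes reached with a higher and 1.39% with a lower level in drug-loaded MNs. The median was moved by single libraries, being 1.07 or 0.49 when HS replicate 1 or 2 was left out and 0.32 or 1.13 when drug-loaded MNs replicate 1 or 2 was. Under median-ratio scaling the median over all genes moved to -0.011 and under quantile normalization to -0.019, and all 7 genes stayed higher, with medians of 0.30 and 0.45. In 5 of the 7 genes the direction was kept when HS replicate 2 or drug-loaded MNs replicate 1 was left out.

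**Figure D1:**
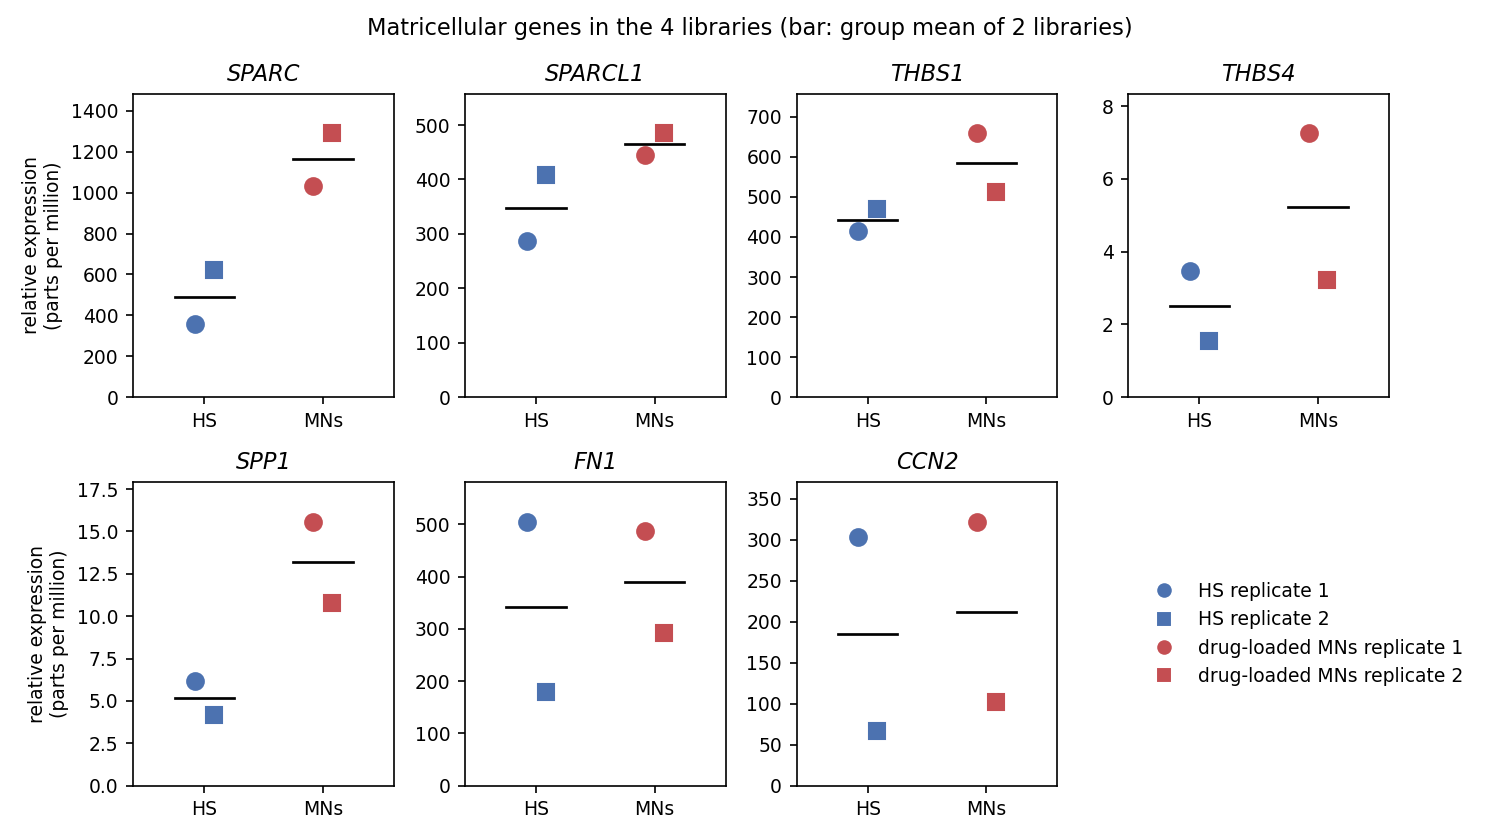
Relative expression in units of 1 part in 1000000 (vertical axes from 0, a scale for each gene) of the 7 genes in the HS libraries (blue) and the drug-loaded MNs libraries (red), with circles for replicate 1, squares for replicate 2 and bars for group means of 2 libraries. The groups are separate for SPARC, SPARCL1, THBS1 and SPP1 and overlap for FN1, THBS4 and CCN2.

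SPARC (ENSOCUG00000012120), a collagen-binding glycoprotein that helps assemble collagen fibrils, had the largest log2 fold change of the 7 genes on the log2(units + 1) scale, while SPP1 had the larger ratio of means (2.55 against 2.37) and, with a pseudocount of 0.1, the larger log2 fold change (1.34 against 1.29). It stood at 357 and 623 units in HS replicates 1 and 2 and at 1035 and 1292 units in drug-loaded MNs replicates 1 and 2. Both treated libraries lay above both untreated ones, although the HS libraries themselves differed 1.74-fold. The means were 490 ± 188 and 1163 ± 181 units (SD, n = 2 each), a ratio of 2.37. The log2 fold change was 1.29 (SE 0.31, 95% interval 0.57 to 2.01), with an unadjusted p of 0.0035 and a limma adjusted p of 0.314. With 1 library left out, it stayed between 0.89 and 1.69.

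SPARCL1 (ENSOCUG00000006131), also called hevin, is the close relative of SPARC and is abundant in vessel walls. It stood at 286 and 408 units in HS and at 445 and 485 units in drug-loaded MNs. The treated libraries were the higher ones, but the lower of them exceeded the upper HS library by less than the HS libraries differed from each other. Its log2 fold change was 0.44 (SE 0.25, 95% interval -0.14 to 1.02, limma adjusted p 0.719). The log2 ratio of SPARC to SPARCL1 was 0.32 and 0.61 in HS against 1.22 and 1.41 in drug-loaded MNs, so this pair shifted toward SPARC by 0.85 without overlap. With groups of 2, the smallest two-sided p of an exact permutation test is 0.333, so the shift was not tested further.

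SPP1 (ENSOCUG00000022536) encodes osteopontin, a phosphoprotein that binds integrins and CD44 and is made by macrophages, among other cells, in injured tissue. It was low, at 6.16 and 4.16 units in HS and at 15.6 and 10.8 units in drug-loaded MNs. Every treated library exceeded every untreated one. The means were 5.16 ± 1.42 and 13.2 ± 3.40 units (SD, n = 2 each), and the log2 fold change was 1.20 (SE 0.32, 95% interval 0.45 to 1.95). The unadjusted p was 0.0063 and the limma adjusted p 0.344. Macrophage markers were set beside it. Of 8 listed markers, 6 were in the table (CD163, MRC1, CSF1R, C1QA, C1QB and C1QC), and none was at 0. All 6 were higher after treatment (median log2 fold change 1.28), where 64.6% of all genes were higher. The summed level of these markers was 77.7 and 95.3 units in HS and 194 and 195 units in drug-loaded MNs. Divided by this sum, the log2 ratio of SPP1 was -3.66 and -4.52 in HS against -3.64 and -4.18 in drug-loaded MNs. The groups overlapped. The part of macrophages in the level of SPP1 was not tested.

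**Figure D2:**
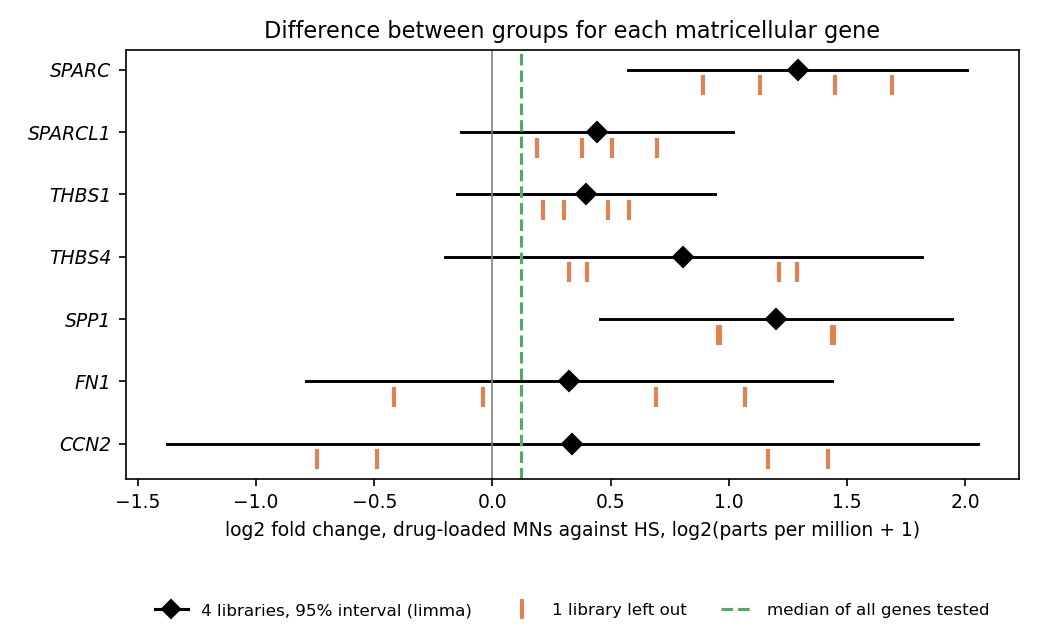
Log2 fold change of drug-loaded MNs against HS on the log2(units + 1) scale (horizontal axis) for the 7 genes. Diamonds with bars give the fit on 4 libraries with its 95% interval, orange ticks the fits with 1 library left out and the dashed line the median of all genes tested (0.12), and only the intervals of SPARC and SPP1 lie wholly above 0.

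The thrombospondins are large calcium-binding glycoproteins. THBS1 (ENSOCUG00000003792), which activates latent TGF-beta and restrains vessel growth, stood at 414 and 470 units in HS and at 659 and 512 units in drug-loaded MNs. The groups were separate, with HS replicate 2 and drug-loaded MNs replicate 2 close to each other. The difference on the log2 scale was 0.40 (SE 0.23, 95% interval -0.15 to 0.94, limma adjusted p 0.737). THBS4 (ENSOCUG00000009244), a pentamer found in tendon and muscle matrix, was close to the filter limit of 1 unit. It stood at 3.47 and 1.55 units in HS and at 7.26 and 3.22 units in drug-loaded MNs. HS replicate 1 exceeded drug-loaded MNs replicate 2, so the groups overlapped. Its ratio of means was 2.09, yet the libraries differed 2.24-fold within HS and 2.26-fold within drug-loaded MNs, and the log2 fold change of 0.81 (SE 0.43) had a limma adjusted p of 0.706. Among other members of the family, THBS3 stood at 2.53 and 1.73 units in HS and at 4.53 and 5.17 units in drug-loaded MNs, and its log2 fold change was 0.91 (limma adjusted p 0.428). COMP was not analysed here.

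FN1 (ENSOCUG00000010104) encodes fibronectin, the main cell-binding protein of the provisional matrix. It stood at 505 and 180 units in HS and at 488 and 293 units in drug-loaded MNs. HS replicate 1 was the highest library and HS replicate 2 the lowest, so the treated libraries lay between the untreated ones. The libraries differed 2.81-fold within HS and 1.66-fold within drug-loaded MNs, against a ratio of group means of 1.14. The log2 fold change was 0.33 (SE 0.48, 95% interval -0.79 to 1.44, limma adjusted p 0.901), so the interval spans both directions. It was 1.07 when HS replicate 1 was left out and -0.42 when HS replicate 2 was, and for drug-loaded MNs replicates 1 and 2 it was -0.041 and 0.69.

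CCN2 (ENSOCUG00000002835), the connective tissue growth factor that is induced by TGF-beta and by YAP, varied most between libraries of 1 group. It stood at 304 and 67.2 units in HS and at 322 and 102 units in drug-loaded MNs. In both groups the library numbered 1 was the high one, by 4.53-fold in HS and by 3.17-fold in drug-loaded MNs, while the group means differed 1.14-fold. The log2 fold change was 0.34 (SE 0.73, 95% interval -1.38 to 2.05, limma adjusted p 0.938). It was 1.42 when HS replicate 1 was left out and -0.74 when HS replicate 2 was, and for drug-loaded MNs replicates 1 and 2 it was -0.49 and 1.16. CCN1, its nearest relative in the list and named here after its values were seen, was higher in replicate 1 only in drug-loaded MNs. CCN1 stood at 261 and 314 units in HS and at 687 and 325 units in drug-loaded MNs (log2 fold change 0.72, limma adjusted p 0.672).

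FN1, CCN2 and THBS4 were thus all higher by over 1.5 times in replicate 1 of both groups, which held for 304 of the 9348 genes tested (3.25%). The number is a name in the labels and pairs no libraries. Cartilage-associated genes differed between the libraries in the same order as FN1 in HS and in drug-loaded MNs. COL9A1, a chain of cartilage collagen IX, stood at 273 and 6.53 units in HS and at 127 and 83.3 units in drug-loaded MNs. HAPLN1, the cartilage link protein, stood at 162 and 6.21 units in HS and at 93.0 and 52.9 units in drug-loaded MNs. S100B, which both chondrocytes and Schwann cells express, stood at 410 and 17.0 units in HS and at 204 and 98.5 units in drug-loaded MNs. HS replicate 2 was lowest in COL9A1, HAPLN1 and S100B, with COL9A1 41.8-fold and HAPLN1 26.1-fold below HS replicate 1. MATN3 was also lowest there. SOX9 was not, at 113 and 90.7 units in HS and at 105 and 65.8 units in drug-loaded MNs, with its lowest level in drug-loaded MNs replicate 2. The chondrocyte list had 4 of its 6 genes in the table (SOX9, MATN3, COL9A1 and HAPLN1), none at 0, and summed to 555 and 104 units in HS and to 327 and 203 units in drug-loaded MNs. COL2A1 and ACAN were not analysed here. The part of cartilage cells in the levels of FN1, CCN2 and THBS4 was not tested.

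**Figure D3:**
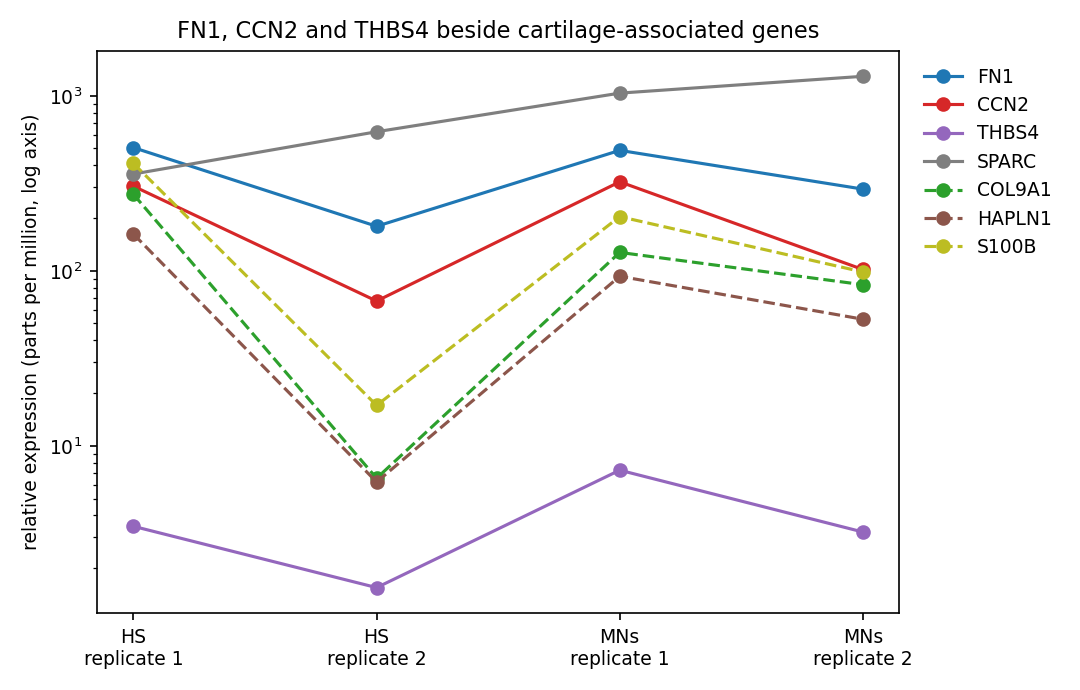
Relative expression in units (vertical log axis) of FN1, CCN2, THBS4 and SPARC (solid lines) and of the cartilage-associated genes COL9A1, HAPLN1 and S100B (dashed lines) in the 4 libraries, the lines only joining points of 1 gene. FN1, CCN2, THBS4, COL9A1, HAPLN1 and S100B are all lowest in HS replicate 2, and SPARC is lowest in HS replicate 1.

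Dissociation response genes are immediate early genes induced while tissue is digested. Their sum did not share the order of CCN2. The 5 of 8 that were in the table (FOS, JUN, EGR1, ATF3 and DUSP1) summed to 13142 and 20232 units in HS and to 12933 and 13713 units in drug-loaded MNs, so HS replicate 2, where CCN2 was lowest, had the most. All 5 had a log2 fold change below 0, with a median of -0.18, where 64.6% of all genes were above 0. Within drug-loaded MNs, FOS alone of the 5 was higher in replicate 1, at 4803 against 3673 units, as CCN2 was. The part of dissociation in the levels of CCN2 was not tested.

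Fibroblast markers moved with the group. All 5 fibroblast matrix markers (COL1A1, COL1A2, COL3A1, DCN and LUM) were in the table and higher after treatment (median log2 fold change 0.90). Over all genes 64.6% were higher. The summed level of these markers was 22929 and 22452 units in HS and 44488 and 48451 units in drug-loaded MNs. Of 5 fibroblast markers outside the matrix only the transcription factor PRRX1 was in the table, at 105 and 118 units in HS and 254 and 177 units in drug-loaded MNs. To set the matricellular genes beside this, each level was divided by the summed matrix markers of its library. The log2 ratio of SPARC was then -6.00 and -5.17 in HS against -5.43 and -5.23 in drug-loaded MNs, and the groups overlapped. For THBS1 the ratio was -5.79 and -5.58 in HS against -6.08 and -6.56 in drug-loaded MNs, and for SPARCL1 it was -6.32 and -5.78 in HS against -6.64 in both treated libraries. Relative to these markers THBS1 was thus lower in drug-loaded MNs by 0.64 and SPARCL1 by 0.59 on the log2 scale, both without overlap. Their own levels were higher. The summed markers were higher by 1.03 on the log2 scale, against a median of 0.12 over all genes tested. A gene that rose by less is lower relative to them, and the share of all genes without overlap was not counted. Relative to PRRX1, THBS1 was again lower without overlap (1.98 and 2.001 in HS, 1.37 and 1.53 in drug-loaded MNs), but SPARCL1 was not (1.45 and 1.80 in HS, 0.81 and 1.45 in drug-loaded MNs). SPP1 was higher relative to PRRX1 without overlap (-4.09 and -4.82 in HS, -4.03 and -4.04 in drug-loaded MNs), by less than the HS libraries differed from each other, and the other 4 genes overlapped. The ratios of FN1, CCN2, THBS4 and SPP1 to the matrix markers overlapped between the groups.

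**Figure D4:**
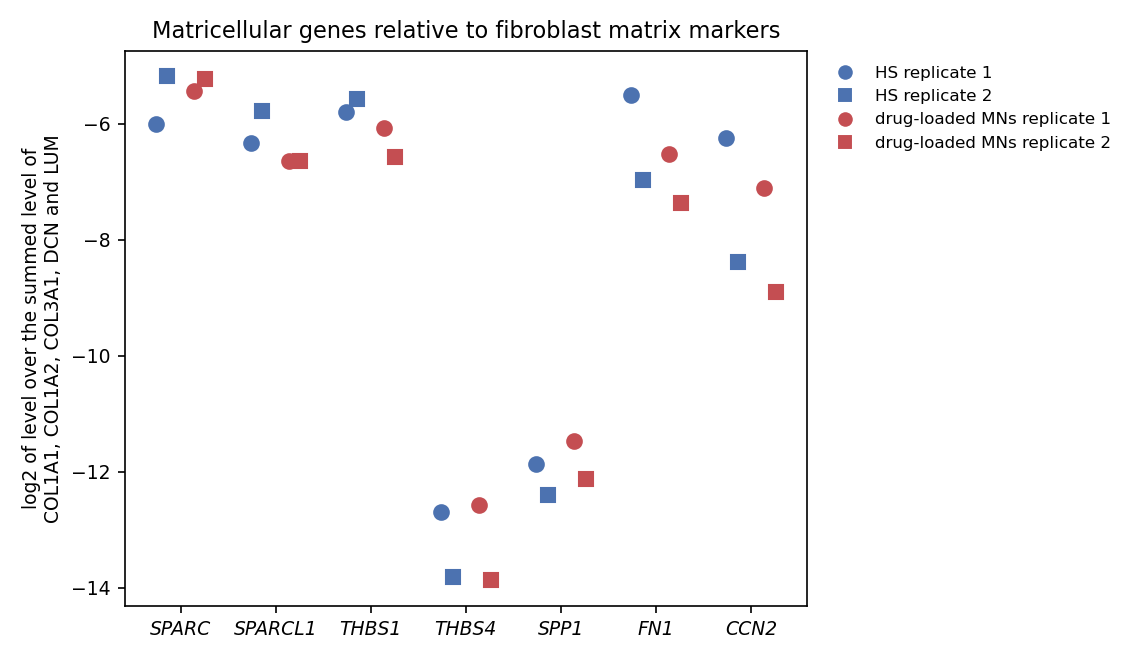
Log2 of the level of each gene over the summed level of COL1A1, COL1A2, COL3A1, DCN and LUM in the same library (vertical axis) for HS (blue) and drug-loaded MNs (red), with circles for replicate 1 and squares for replicate 2. Only SPARCL1 and THBS1 have groups that do not overlap, and in both the treated libraries are lower. The summed markers were themselves higher in drug-loaded MNs by 1.03 on the log2 scale. The share of all genes that are lower in this way was not counted.

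Endothelial markers, listed because SPARCL1 and THBS1 are also made by vessels, went both ways. Of 7, 6 were in the table (PECAM1, CDH5, VWF, KDR, TEK and EMCN), none at 0, with a median log2 fold change of 0.22 and summed levels of 201 and 206 units in HS and 157 and 211 units in drug-loaded MNs. VWF, which made up most of this sum, stood at 149 and 128 units in HS and at 83.1 and 114 units in drug-loaded MNs (log2 fold change -0.50, limma adjusted p 0.673). CDH5 (log2 fold change 0.92, limma adjusted p 0.445) and PECAM1 (log2 fold change 0.54, limma adjusted p 0.716) were higher in both treated libraries than in both HS libraries. Relative to the endothelial sum, and unlike the ratios to fibroblast markers, SPARCL1 was higher in drug-loaded MNs by 0.61 and THBS1 by 0.56 on the log2 scale without overlap, as were SPARC by 1.46 and SPP1 by 1.52. Relative to the macrophage sum the log2 ratios of SPARCL1 and THBS1 differed by -0.73 and -0.78, again without overlap. The direction for SPARCL1 and THBS1 thus turned with the marker list used as divisor. The share of all genes without overlap was counted for no divisor. Contractile and mural markers (ACTA2, MYH11, RGS5 and PDGFRB of 7) summed to 373 and 686 units in HS and to 856 and 665 units in drug-loaded MNs, with a median of 0.55, and relative to this sum only SPARC had groups without overlap, higher by 0.72 on the log2 scale. Platelet markers were low, and ITGA2B stood between 9.74 and 10.6 units and GP9 at no more than 0.62 units. The part of these cells in the levels of the 7 genes was not tested.

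The wider matricellular family was read from a list of 27 genes, of which 19 were in the table and 18 were tested (TNR was listed at 0 in all libraries). 13 were higher and 5 lower, with a median log2 fold change of 0.42, where 64.6% of all genes were higher. At an unadjusted p under 0.05, 3 were higher and 1 (CCN6) was lower, against 7.26% and 1.39% of all genes, and none passed after adjustment. FSTL1, a secreted SPARC-family glycoprotein, stood at 50.8 and 59.9 units in HS and at 159 and 116 units in drug-loaded MNs (log2 fold change 1.28, SE 0.25, limma adjusted p 0.264). CTHRC1, secreted by activated fibroblasts, stood at 155 and 187 units in HS and at 419 and 388 units in drug-loaded MNs (log2 fold change 1.24, SE 0.22, limma adjusted p 0.264). In both genes the libraries of a group differed by far less than the groups did. CCN6, named after its values were seen, stood at 2.78 and 1.96 units in HS and at 0.92 and 0.97 units in drug-loaded MNs (log2 fold change -0.78).

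Transcripts of clot proteins, which are made mainly in the liver, were scarce where the table listed them. Fibrinogen chains FGA and FGB were listed at 0 in all 4 libraries, and FGG and vitronectin (VTN) did not exceed 1 unit in any. Of the clot and fibrinolysis list, 7 of 12 genes were in the table and 2 were tested. PLAU, the urokinase that starts fibrinolysis and was named after its values were seen, had a log2 fold change of -0.33, and SERPINE2, an inhibitor of thrombin and urokinase, one of 0.62 (21.0 to 36.8 units in HS, 37.4 to 50.02 units in drug-loaded MNs, limma adjusted p 0.696).

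Receptors of these proteins were read from a list of 18, of which 13 were tested, 9 higher and 4 lower beside 64.6% higher over all genes, with a median of 0.29. At an unadjusted p under 0.05, 5 were higher (ITGA4, CD36, ITGB3, STAB1 and CACNA2D1) and 0 lower, beside 7.26% and 1.39% of all genes. ITGA4, the integrin alpha chain that binds an alternative segment of fibronectin and osteopontin and is typical of leukocytes, stood at 13.5 and 11.3 units in HS and at 41.1 and 46.3 units in drug-loaded MNs (log2 fold change 1.74, SE 0.25, limma adjusted p 0.209). With 1 library left out, the log2 fold change of ITGA4 stayed between 1.63 and 1.86. CD36, a thrombospondin receptor, stood at 2.83 and 2.61 units in HS and at 7.05 and 5.48 units in drug-loaded MNs (log2 fold change 0.96, limma adjusted p 0.404). ITGB3, the beta chain of the vitronectin and osteopontin receptor, was close to the filter limit of 1 unit. ITGB3 stood at 1.07 and 1.11 units in HS and at 2.88 and 2.64 units in drug-loaded MNs (log2 fold change 0.85, limma adjusted p 0.441). The main fibronectin receptor chain ITGA5 and the osteopontin receptors ITGAV and CD44, named after their values were seen, had log2 fold changes of 0.28, -0.03 (from -0.28 to 0.21 with 1 library left out) and -0.20. CD44 was at 260 and 322 units in HS and at 248 and 255 units in drug-loaded MNs. SDC1, named after its values were seen, was the most abundant of the 13 and was also lower without overlap. SDC1 stood at 539 and 663 units in HS and at 407 and 470 units in drug-loaded MNs (log2 fold change -0.45, limma adjusted p 0.687).

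Genes of the TGF-beta and YAP pathways, which act on CCN2, FN1 and THBS1, were read from a list of 15, of which 14 were tested. TGFB1 was not analysed here. Of the 14, 10 were higher and 4 lower (SMAD2, SMAD3, SMAD7 and SRF), with a median of 0.43. Over all genes 64.6% were higher. At an unadjusted p under 0.05, 3 of the 14 were higher, beside 7.26% of all genes. LTBP1, which ties latent TGF-beta to fibronectin and fibrillin fibres, stood at 62.1 and 59.5 units in HS and at 175 and 123 units in drug-loaded MNs (log2 fold change 1.26, SE 0.25, limma adjusted p 0.264). TGFBR3 stood at 72.05 and 81.4 units in HS and at 121 and 125 units in drug-loaded MNs (log2 fold change 0.67, limma adjusted p 0.417). TGFBR2, the receptor that binds TGF-beta first, stood at 79.3 and 91.7 units in HS and at 173 and 122 units in drug-loaded MNs (log2 fold change 0.76, limma adjusted p 0.428). In these 3 genes the libraries of a group differed less than the group means did, the reverse of CCN2.

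Among 6 tested enzymes that process or cross-link the matrix, 5 were higher and 1 (MMP3) was lower beside 64.6% higher over all genes, with a median of 0.31. MMP3 stood at 10.2 units in HS replicate 1 and under 1 unit in the other libraries. LOX, which cross-links collagen, stood at 206 and 273 units in HS and at 443 and 512 units in drug-loaded MNs (log2 fold change 1.004, SE 0.24, limma adjusted p 0.314). ADAMTS1, a protease that cuts proteoglycans, stood at 88.9 and 109 units in HS and at 226 and 173 units in drug-loaded MNs (log2 fold change 0.999, limma adjusted p 0.316). MMP2, a gelatinase, stood at 703 and 642 units in HS and at 865 and 883 units in drug-loaded MNs (log2 fold change 0.38, limma adjusted p 0.722).

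**Figure D5:**
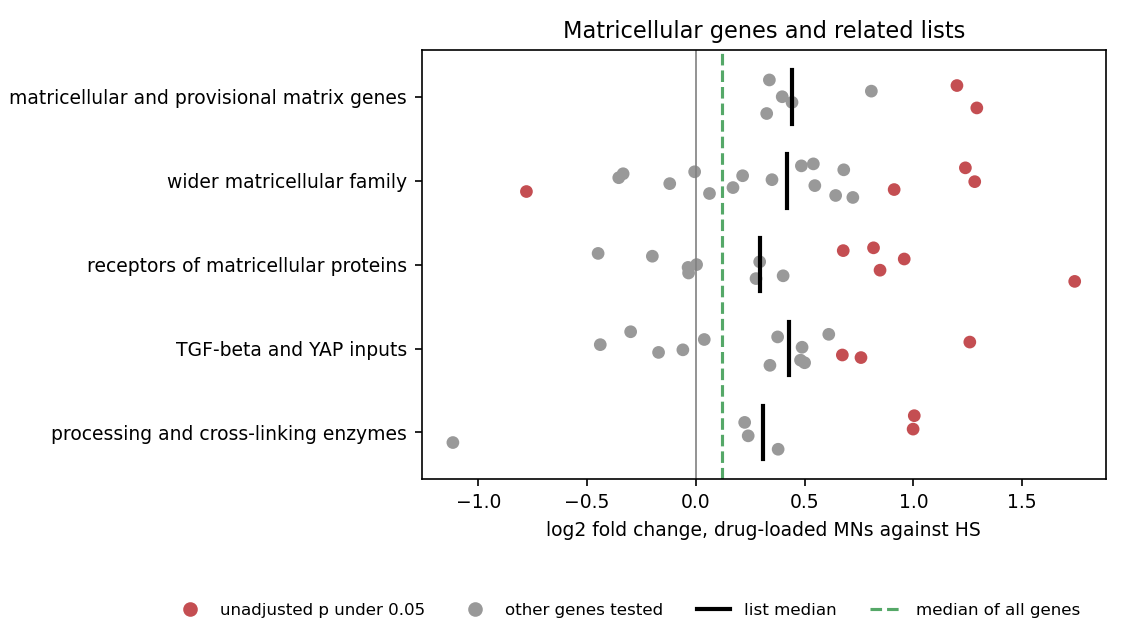
Log2 fold change of drug-loaded MNs against HS (horizontal axis) for each gene tested in 5 lists, with red points for an unadjusted p under 0.05, black bars for list medians and the dashed line for the median of all genes (0.12). Medians lie between 0.29 and 0.44, and 1 red point, CCN6, lies below 0.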

How the data were processed

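Per the file headers and the labels, the deposited table held 1 value per gene for each of 4 libraries, and every column was matched to a labelled library. The authors counted UMIs with Cell Ranger (version 2.1.1 in the submitters' processing notes) and handled them in Seurat, after filters on cells. The deposited signal, although called FPKM, summed to 10000 in each library. How cells were combined, whether a batch correction had been applied and how doublets were treated is not given in the sources used here. The notes name the build mm10, while gene identifiers were rabbit Ensembl ones. No coordinates or sequences are given.

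Of low values (up to 20 times the smallest), 18.5% to 21.7% lay within 0.1 of a whole multiple of the smallest, so reads were not recovered and no count model was run. Values were rescaled to 1000000 per library, the 9348 genes averaging 1 unit or more entered the fit, and log2(value + 1) was fitted with limma 3.58.1 (lmFit, eBayes with trend, R 4.3.3), two-sided, with Benjamini-Hochberg adjustment over all of them and a threshold of 0.05. The design had foreseen FPKM, and the fit was kept for this signal. Fold changes on this scale understate the change of low genes. The fit was checked on simulated data with normal noise drawn from its own variance model. Differences between libraries that many genes share were not simulated.

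The genes and lists were chosen with earlier results of these data known. Named genes were the 7 in the table and, per list, those past the threshold or the 3 with the smallest p among groups without overlap. In total, 14 alternatives were tried.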

Additional observations from a re-analysis of the deposited data

How the results depend on the processing

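Limits come first from the design. With 2 libraries a group a lone library is assumed to vary like the others when 1 is left out, and since depth was unknown, what it limits could not be measured. All 14 alternatives were planned and run. THBS4, THBS3, CCN6, CD36 and ITGB3 had too low a mean for a minimum of 5 units and have no value there.

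Calls over all genes (4) numbered 0 under the median-ratio, the quantile and the trimmed-total scaling (the total without abundant genes), and also with a pseudocount of 5 and no filter on low values, 1 with eBayes without trend, and between 0 and 75 with 1 library left out. In those 5 settings with 0 calls, limma gave 725 to 1048 genes at an unadjusted p under 0.05. With the replicate number as a block there were 241, among them SPARC (limma adjusted p 0.00018), SPP1 (limma adjusted p 0.041) and no other of the 7 genes. CTHRC1, FSTL1, ITGA4, LTBP1, LOX, ADAMTS1 and COL1A1 passed there too. This fit has 1 residual degree of freedom. Same-numbered libraries share only a number, and the correlation over genes of their departures from their own group mean was 0.22. The cause was not tested.

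With 1 library left out, the median of the 7 genes ranged from 0.32 to 1.13, the value of FN1 from -0.42 to 1.07, CCN2 from -0.74 to 1.42, and ITGAV from -0.28 to 0.21. SPARC, SPARCL1, THBS1, THBS4 and SPP1 kept their direction in every alternative that gave a value.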

Other observations

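SPARC and COL1A1, a chain of fibrillar collagen I, kept a nearly fixed proportion in all 4 libraries. The log2 ratio of SPARC to COL1A1 was -0.86 and -0.92 in HS against -0.91 and -1.08 in drug-loaded MNs, a range of 0.21, while COL1A1 itself went from 649 and 1179 units in HS to 1946 and 2722 units in drug-loaded MNs (log2 fold change 1.39, limma adjusted p 0.316). Among 1254 other genes with a mean of at least 100 units, COL1A1 had the smallest such range. Next came IL13RA2 (0.41), HTRA1 (0.51), a secreted protease of the matrix, and ND5 (0.53), which is mitochondrially encoded. COL1A2, the partner chain of collagen I, had a range of 0.90 and COL3A1 of 1.10. The level of COL1A2 was far above that of COL1A1, at 13738 and 12946 units in HS and at 22256 and 26648 units in drug-loaded MNs. The ratio was looked at after the values had been seen, it rests on 4 libraries that share their scaling, and it was not tested.

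MGP, a secreted matrix protein made by cartilage and vessels, also ordered the libraries as FN1 did within each group, at 2935 and 595 units in HS against 1905 and 1235 units in drug-loaded MNs. It was the most abundant gene of the wider matricellular list in every library and was named after its values were seen.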
